A study of Mus musculus with 25 samples.

Results

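Dorsal root ganglia of mice with destabilization of the medial meniscus (DMM), a knee surgery that is followed by osteoarthritis, were compared with those of untreated (naive) mice 4 weeks after the operation. The comparison holds 6 of the 25 arrays of the series, namely the 3 DMM and the 3 naive arrays labelled as 4 weeks, and it was made across the 20260 named genes that were bright enough to test. All mice were male C57BL/6, and the tissue was the lumbar ganglia L3 to L5. Operated mice were 10 weeks old at surgery, which was done on the right knee, and ganglia were taken 4 weeks later. The naive mice had no surgery and were 14 weeks old. The 3 sham arrays of the same time are given beside them, because sham surgery opens the knee without the lesion. The labels name no genetic change in any group. They do not say how many animals 1 array holds, nor at what time of day tissue was taken, and a p-value here measures no more than the spread among the deposited samples.

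Sensory neurons with their cell bodies in the dorsal root ganglia carry touch, position and pain from the limb, and satellite glia, Schwann cells, macrophages, vessels and a connective sheath surround them. Damage to a sensory axon switches on a program of transcription factors, growth-associated proteins and neuropeptides in these cell bodies. The ganglia also contain a circadian clock, in which BMAL1 (gene Arntl) and its partners switch on the Per, Cry and Nr1d genes, and the products of those genes shut BMAL1 down. Dbp, Tef and Hlf are output factors of the same loop.

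Values are deposited log2 intensities. Errors beside a mean are SD over arrays, and those beside a difference are standard errors from limma, whose p-values were adjusted over all 20260 genes. The 6 array medians lay between 4.89 and 4.96. Correlations across genes were 0.997 to 0.998 within DMM, 0.997 to 0.998 within naive and 0.996 to 0.998 between the groups. The median difference over all genes was -0.03, with 7962 genes above and 12298 below 0. With each array centred on its median the split was 10056 above and 10204 below. Markers of sensory neurons were bright on all 6 arrays, with Scn10a (a nociceptor sodium channel) between 16.03 and 16.42 and Avil between 15.10 and 15.36. The muscle marker Mylpf, the spinal cord markers Mog, Gad1 and Chat and the neutrophil markers Mpo and Elane had means under the brightness limit of 4.52. The muscle markers Acta1 (5.66 to 5.78) and Ckm (5.73 to 5.91), the astrocyte marker Aqp4 (6.21 to 6.51, lower in all DMM arrays) and the neutrophil marker Ly6g (4.50 to 4.97) were kept.

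The naive arrays at 4 weeks stood apart from the naive arrays of the later times in many gene groups. In 19 of 45 gene lists the means of all 3 lay above those of all 6 later naive arrays, in 5 they lay below, and in 21 they overlapped. The mean over all genes tested lay above as well, at 8.063 to 8.085 and then 7.982 to 8.031. List means were not centred and some lists share genes, so the shift over all genes is not taken out of these counts. The macrophage list read 6.94 to 7.18 in naive arrays at 4 weeks and 6.37 to 6.65 later, and the cell cycle list 5.79 to 5.98 and 5.61 to 5.75. The potassium and HCN channel list stood the other way, at 9.27 to 9.29 and then 9.41 to 9.56, as did the sodium, calcium, touch neuron and clock core lists. Immediate early genes overlapped. Over 28 nerve injury effector genes the list mean was 8.77, 8.58 and 8.77 in the naive arrays at 4 weeks. It was 7.37, 7.42 and 7.96 in naive arrays at 8 weeks and 7.39, 7.46 and 7.44 at 16 weeks. Differences of these groups below are differences from these naive arrays, and the part of age or of a batch in the gap was not tested.

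Arntl rose and Dbp fell, and these 2 genes, 0.00987% of those tested, were all that passed the adjusted threshold of 0.05. Both belong to the clock. The time of day at which tissue was taken is not in the labels, and its part in the clock differences was not tested. Arntl read 6.19, 6.27 and 6.62 in the naive arrays, 6.69, 6.52 and 6.52 in the sham arrays and 7.50, 7.25 and 7.15 in the DMM arrays. All DMM arrays lay above all others, and sham overlapped naive. The difference was 0.94 ± 0.12, or 1.92-fold (limma adjusted p = 0.00304). Dbp read 9.39, 9.88 and 9.39 in the naive arrays, 8.64, 8.87 and 9.25 in the sham arrays and 7.67, 7.95 and 8.05 in the DMM arrays. The 3 groups did not overlap, with sham between the others. Dbp fell by 1.66 ± 0.22, to 0.317 of the naive level (limma adjusted p = 0.00304). When the 6 arrays were fitted alone, neither gene passed (adjusted p = 0.366 for Arntl and 0.193 for Dbp).

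Promoter sequences of clock genes are shown because the called genes belong to 1 regulatory loop whose DNA elements are known. RefSeq promoters of GRCm38.p6 (250 bases before to 50 after a gene's start) were matched for 30 of 35 tested clock and clock output genes, in 48 promoters. Capitals mark a RORE-like match (AGTAGGTNA, an element bound by ROR and REV-ERB receptors) in Arntl and a D-box (TTATGTAA, an element bound by DBP, TEF and HLF) in Per3. Dbp has no capitals because none of the searched letters is in this window. The Arntl promoter lies at chr7:113207261-113207560 on the plus strand, the Dbp promoter at chr7:45704997-45705296 on the plus strand and the Per3 promoter at chr4:151044616-151044915 on the minus strand.
Arntl: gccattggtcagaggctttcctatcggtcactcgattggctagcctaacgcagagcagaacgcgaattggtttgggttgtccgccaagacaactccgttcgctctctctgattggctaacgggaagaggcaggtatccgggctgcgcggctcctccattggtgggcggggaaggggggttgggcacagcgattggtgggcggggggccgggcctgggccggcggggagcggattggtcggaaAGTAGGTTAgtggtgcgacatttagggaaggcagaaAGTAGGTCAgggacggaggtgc
Dbp: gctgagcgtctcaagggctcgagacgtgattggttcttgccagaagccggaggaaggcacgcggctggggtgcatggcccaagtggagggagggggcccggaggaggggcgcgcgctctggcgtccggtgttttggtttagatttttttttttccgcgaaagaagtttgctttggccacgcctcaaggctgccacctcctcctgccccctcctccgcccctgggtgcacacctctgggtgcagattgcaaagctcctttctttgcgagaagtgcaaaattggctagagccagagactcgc
Per3: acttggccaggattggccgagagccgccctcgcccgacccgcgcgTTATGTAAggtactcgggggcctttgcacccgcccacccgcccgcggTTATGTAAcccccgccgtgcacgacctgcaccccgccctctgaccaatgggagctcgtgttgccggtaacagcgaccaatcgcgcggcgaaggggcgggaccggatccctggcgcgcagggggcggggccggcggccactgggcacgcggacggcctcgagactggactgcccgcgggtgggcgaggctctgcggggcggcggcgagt
The Arntl matches begin at -8 and 29 from the start, and the Per3 matches begin at -205 and -158. Searched on both strands, the RORE-like letters were in 0.591% of all 32851 promoters and in 8.33% of the 48 clock promoters (those of Arntl, Nfil3 and Fabp7). Of the 4 promoters behind that share, 2 are overlapping windows of Arntl that hold the same match. The searched letters cover both Arntl matches, which differ only at the N, so the share is no test of enrichment. The D-box letters were in 0.938% of all and in 4.17% of clock promoters (Per3 and Timeless). The E-box CACGTG, the element of BMAL1 and CLOCK, was in 7.15% of all and in 22.9% of clock promoters. The 9 genes behind that share were Per1, Cry1 and Bhlhe41 of the clock core and Tef, Fkbp5, Sgk1, Hsph1, Lonrf3 and Tspan4 of the output list. Overlapping windows of Hsph1 hold the same E-box match and are each counted there. The CRE TGACGTCA was in 1.79% of all and in 2.08% of clock promoters. No motif searched contains another. A match is a description of letters and not of a bound site.

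The genes that drive the clock stood higher in DMM arrays without passing. Npas2, which can replace CLOCK as the partner of BMAL1, read 7.22, 7.27 and 6.81 in naive and 7.37, 7.60 and 7.42 in DMM arrays (difference 0.37 ± 0.14, limma adjusted p = 0.463). Clock itself read 13.05, 12.94 and 13.04 in naive and 13.18, 13.06 and 13.20 in DMM arrays (0.13 ± 0.07, limma adjusted p = 0.576). For both genes the DMM arrays lay above the naive arrays, though for Clock the gap between the groups was narrow. Arntl2, a relative of Arntl, differed by 0.20 ± 0.08 with no overlap. Rora, an activator of Arntl, overlapped (0.06 ± 0.09).

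Several repressor genes that BMAL1 switches on stood lower. Nr1d1, which encodes REV-ERB alpha, read 9.02, 9.72 and 9.33 in naive, 8.95, 9.28 and 9.33 in sham and 7.85, 8.27 and 8.27 in DMM arrays. Sham lay with naive here, and the DMM difference was -1.23 ± 0.27 (limma adjusted p = 0.231). Per3 read 6.85, 7.18 and 6.85 in naive, 6.48, 6.62 and 6.89 in sham and 6.03, 6.22 and 6.18 in DMM arrays, a difference of -0.82 ± 0.17 (limma adjusted p = 0.199). Sham overlapped naive, and every DMM array lay below both. Per2 read 6.62, 6.80 and 6.58 in naive and 6.03, 6.23 and 6.09 in DMM arrays (-0.55 ± 0.13, limma adjusted p = 0.269). Nr1d2 differed by -0.52 ± 0.18 and Bhlhe40, a repressor also known as DEC1, by -0.56 ± 0.17, both without overlap. Per1 (-0.40 ± 0.19) and Bhlhe41 (-0.39 ± 0.16) overlapped, and the repressors Cry1 and Cry2 differed by 0.06 and 0.04.

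Over the 18 tested clock core genes, 8 stood higher and 10 lower, with a median of -0.07 (-0.02 without DMM replicate 3). In 4 of them (22.2%) all DMM arrays lay above all naive arrays, and in 5 (27.8%) all lay below. Over all genes those shares were 4.65% (943 genes) and 11.3% (2295 genes), and with centred arrays 7.79% and 7.28%. Centring left 4 and 5 clock core genes without overlap. Among the 17 output genes 2 stood higher and 15 lower, with a median of -0.11. Tef (-0.37 ± 0.14) and Hlf (-0.53 ± 0.33), relatives of Dbp, did not overlap with naive, and their sham arrays lay below naive as well. Fabp7, a fatty acid binding protein of satellite glia that follows the clock in brain glia, read 17.46, 17.42 and 17.67 in naive and 17.84, 17.70 and 17.77 in DMM arrays (0.25 ± 0.11, limma adjusted p = 0.518).

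**Figure D1:**
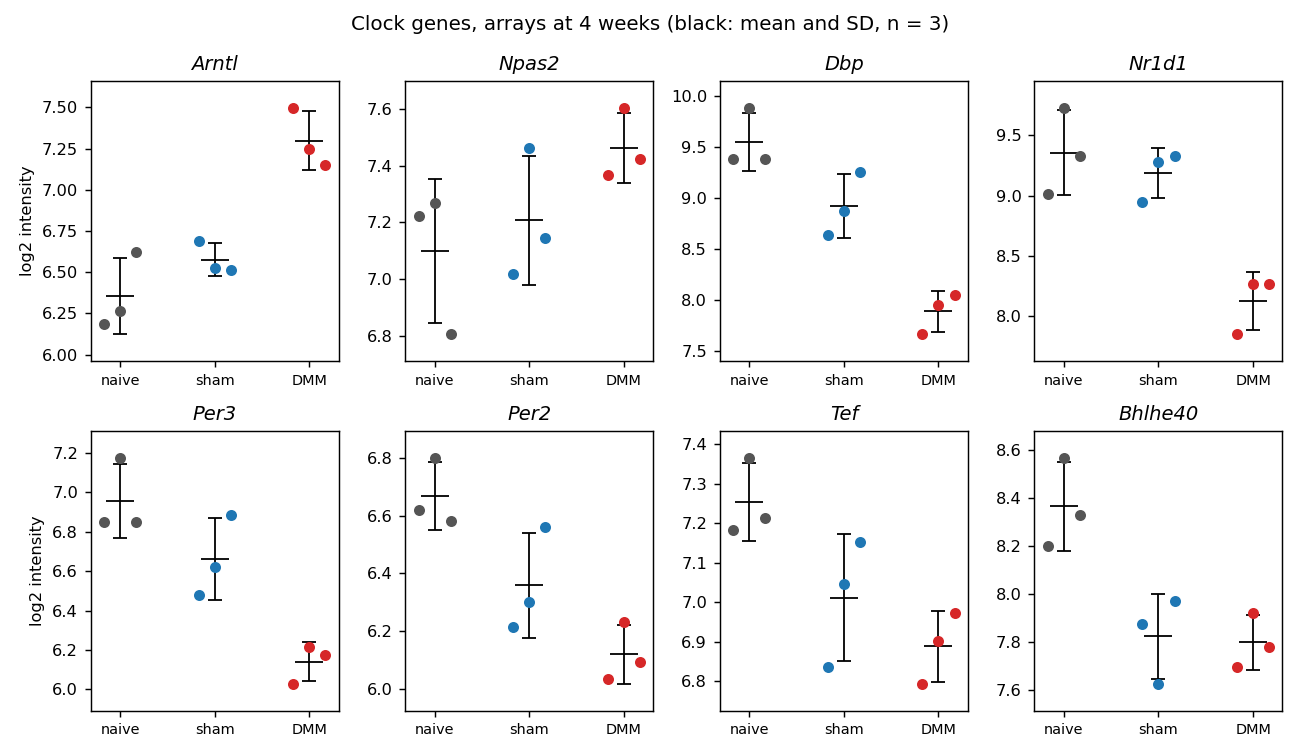
Log2 intensity of 8 clock genes on the 9 arrays at 4 weeks; points are arrays and black bars the mean and SD of 3 arrays. DMM arrays of Arntl (7.15 to 7.50) lie above all others, and those of Dbp (7.67 to 8.05), Nr1d1 and Per3 lie below all others.

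The clock differences at the later times, in other mice, are given side by side and each rests on its own arrays. Arntl differed by 0.94, 1.03 and 1.17 at 4, 8 and 16 weeks, and Dbp by -1.66, -1.45 and -1.20. Per3 differed by -0.82, -1.09 and -0.60. Npas2, higher at 4 weeks, differed by -0.11 at 8 weeks and -0.06 at 16 weeks, and Fabp7 by 0.25, 0.89 and 0.75. Naive arrays read 5.85 to 6.04 for Arntl at the later times, below all those at 4 weeks. The test of the change from 4 weeks did not pass for Arntl (change to 8 weeks 0.09 ± 0.17, limma adjusted p = 0.930, and to 16 weeks 0.22 ± 0.17, adjusted p = 0.669).

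Immediate early genes are switched on within minutes of stimulation and encode transcription factors and their regulators. Of the 25 tested, 18 stood higher and 7 lower in DMM arrays, with a median of 0.21 against -0.03 over all genes. The median was 0.11 without DMM replicate 1 and 0.33 without DMM replicate 3. None passed the adjusted threshold. In 7 of the 25 (28%, beside 4.65% of all genes) all DMM arrays lay above all naive arrays, and in 0 (beside 11.3%) all lay below. After centring 8 lay above (32%, beside 7.79%) and 0 below (beside 7.28%). An unadjusted p below 0.05 was found for 8 members in the higher direction and 0 in the lower, beside 2.28% (461) and 6.53% (1322) of all genes. The list mean read 6.75, 6.72 and 6.80 in naive, 6.83, 6.67 and 6.67 in sham and 7.33, 7.06 and 6.77 in DMM arrays. DMM replicates 1 and 2 thus lay above the other 7 arrays, and DMM replicate 3 lay within the naive range.

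Egr1, a zinc finger activator, read 5.72, 6.00 and 5.86 in naive, 6.06, 5.80 and 5.94 in sham and 7.52, 7.37 and 6.21 in DMM arrays. The third DMM array was above the naive range by less than it was below the other DMM arrays. Naive arrays of the later times read 6.12 to 6.25, a range that holds the third DMM array. The difference was 1.17 ± 0.22 (limma adjusted p = 0.133), and without DMM replicate 3 it was 1.58 and passed (limma adjusted p = 1.11e-05). Nr4a1, an orphan nuclear receptor, read 9.71, 9.93 and 10.04 in naive and 11.06, 10.76 and 10.12 in DMM arrays (0.75 ± 0.17, limma adjusted p = 0.248). It too passed without DMM replicate 3 (difference 1.02, limma adjusted p = 0.00463). For both genes this fit leaves out the DMM array nearest to naive, so a larger difference was built in and the pass is no added support. Ier2 read 4.58, 4.56 and 4.71 in naive and 5.60, 5.07 and 5.02 in DMM arrays (0.61 ± 0.13, limma adjusted p = 0.219), within or under the medians of the negative control probes (5.06 to 5.35) in all but 1 array. Egr3 read 5.42, 5.36 and 5.55 in naive and 5.79, 6.15 and 5.73 in DMM arrays (0.45 ± 0.14).

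Other members rested mostly on 1 array. Ccn1, a matricellular protein, read 6.10, 6.42 and 6.30 in naive and 9.06, 7.27 and 6.44 in DMM arrays (1.32 ± 0.51, limma adjusted p = 0.472). Fos read 5.26, 5.20 and 5.51 in naive and 7.54, 5.82 and 5.18 in DMM arrays (0.86 ± 0.34). DMM replicate 1 was the highest of the 9 arrays at this time for both. Zfp36, which degrades cytokine mRNA, read 5.64, 5.57 and 5.80 in naive and 6.86, 6.20 and 5.63 in DMM arrays. The same array was high for the heat shock gene Hspa1a, at 6.89 beside 5.66 and 5.49 in the other DMM arrays and 5.17 to 5.48 in naive arrays. Not all members stood higher, and Jun (-0.15 ± 0.24), Egr4 (-0.11 ± 0.10) and Klf10 (-0.13 ± 0.12) were among the 7 lower ones. Jun read 0.18 above naive without DMM replicate 3.

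The sham list means lay close to the naive ones. The median of the list was -0.04 for sham minus naive and 0.33 for DMM minus sham, comparisons that share arrays with DMM minus naive. At 8 and 16 weeks the median of DMM minus naive was 0.03 and -0.02. Egr1 differed by -0.10 and 0.04 there, and Nr4a1 by -0.04 and -0.10.

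**Figure D2:**
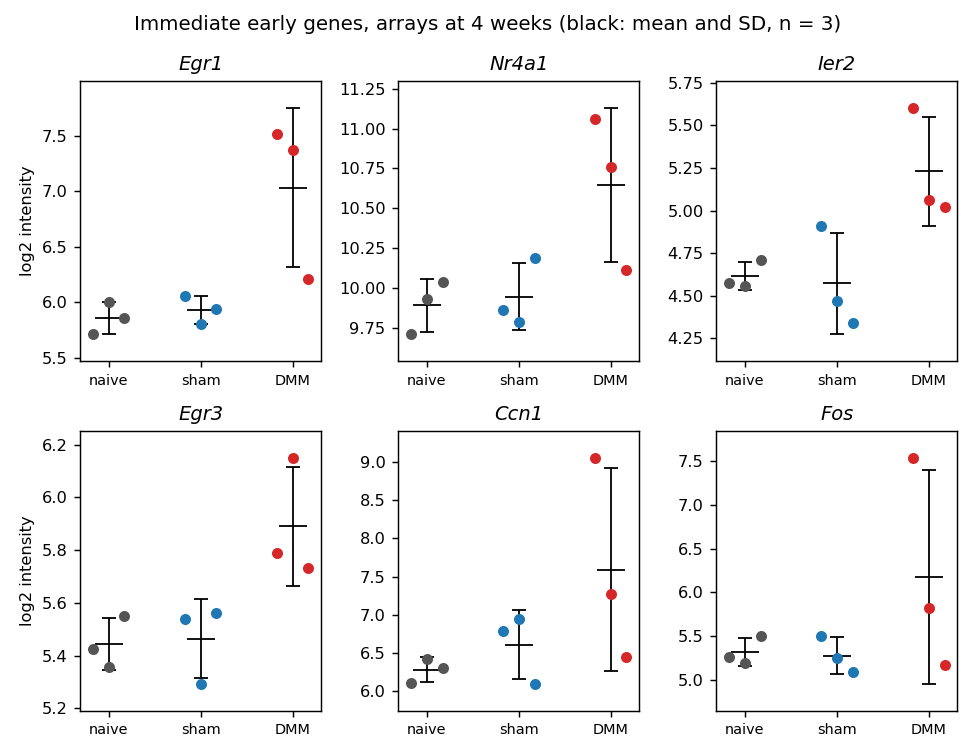
Log2 intensity of 6 immediate early genes on the 9 arrays at 4 weeks; points are arrays and black bars the mean and SD of 3 arrays. For Egr1 and Nr4a1 2 DMM arrays lie far above naive and sham and the third, replicate 3, lies near them, while Ccn1 and Fos are highest in DMM replicate 1 (9.06 and 7.54).

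Nerve injury effectors, the growth-associated proteins, neuropeptides and receptors that axon damage induces, stood lower in DMM than in naive arrays in 28 of 28 cases, with a median of -0.37. None passed the adjusted threshold, 13 had an unadjusted p below 0.05 in the lower direction (46.4%, beside 6.53% of all genes), and in 9 all DMM arrays lay below all naive arrays (32.1%, beside 11.3%). The list mean read 8.77, 8.58 and 8.77 in naive, 8.54, 7.90 and 7.96 in sham and 7.90, 8.61 and 7.69 in DMM arrays. DMM replicate 2 lay within the naive range, and the other DMM arrays lay at or below the lowest sham array. Without DMM replicate 2 the median was -0.52, with 28 of 28 lower. The median was -0.43 for sham minus naive and -0.08 for DMM minus sham.

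Sprr1a, a small proline-rich protein of regrowing axons, read 13.04, 13.11 and 13.02 in naive, 11.78, 8.19 and 10.07 in sham and 8.86, 12.88 and 8.09 in DMM arrays. Naive stood above all operated arrays, DMM replicate 2 lay close to it, and sham lay within the DMM range. The naive arrays were tightly grouped and the operated arrays were not, so that a difference of -3.12 had a standard error of 1.54 (limma adjusted p = 0.580). Nts, the peptide neurotensin, read 13.12, 12.74 and 12.89 in naive and 11.49, 12.80 and 9.91 in DMM arrays (-1.52 ± 0.62). Npy, neuropeptide Y, read 9.47, 9.22 and 8.14 in naive and 7.35, 9.03 and 6.28 in DMM arrays (-1.39 ± 0.65). Gal, the peptide galanin, read 11.02, 9.88 and 10.98 in naive and 8.63, 11.10 and 8.54 in DMM arrays (-1.20 ± 0.73). In each of these 3 peptides DMM replicate 2 lay within or above the naive range.

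Ecel1, an endopeptidase of injured neurons, did not overlap, at 6.67, 7.02 and 6.58 in naive and 5.42, 6.44 and 5.09 in DMM arrays (-1.10 ± 0.35, limma adjusted p = 0.383). Stmn4, a tubulin-binding stathmin, read 7.56, 7.69 and 7.76 in naive and 7.08, 7.45 and 6.76 in DMM arrays (-0.57 ± 0.16, limma adjusted p = 0.358). Gap43, a growth cone protein, read 11.24, 11.19 and 11.07 in naive and 10.71, 10.996 and 10.53 in DMM arrays (-0.42 ± 0.15). These 3 had no overlap even with DMM replicate 2 included. Bdnf, a neurotrophin, was 5.42 to 5.45 in DMM and 5.54 to 5.89 in naive arrays. Csf1, the macrophage growth factor that injured neurons make, differed by -0.36 ± 0.18 with overlap.

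Of 14 transcription factors of the injury program, 4 stood higher and 10 lower, with a median of -0.05 (-0.02 to -0.01 under the scaling alternatives). Without DMM replicate 3 the median turned to 0.03. Atf3, the most used marker of injured sensory neurons, read 9.20, 8.69 and 9.60 in naive, 8.51, 7.58 and 7.86 in sham and 7.68, 9.23 and 7.195 in DMM arrays (-1.13 ± 0.48, limma adjusted p = 0.516). Sox11 read 8.64, 8.35 and 8.92 in naive and 7.64, 8.37 and 7.57 in DMM arrays (-0.77 ± 0.29). Both follow the same array order as the effectors. Stat3, Smad1, Atf2 and Creb1 differed by -0.02, 0.00, 0.01 and 0.05.

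At the later times Sprr1a varied between arrays at 8 weeks and was low at 16 weeks. Sprr1a read 6.72, 6.10 and 11.24 in naive arrays and 5.82, 13.67 and 9.85 in DMM arrays at 8 weeks, and the lone sham array read 13.17. At 16 weeks all 9 arrays lay between 5.32 and 7.15. All naive arrays at 4 weeks thus lay above all naive arrays of the later times. The median of the list for DMM minus naive was 0.42 at 8 weeks and 0.02 at 16 weeks. The test of the change from 4 weeks did not pass for Sprr1a (change to 8 weeks 4.87 ± 2.18, limma adjusted p = 0.552).

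**Figure D3:**
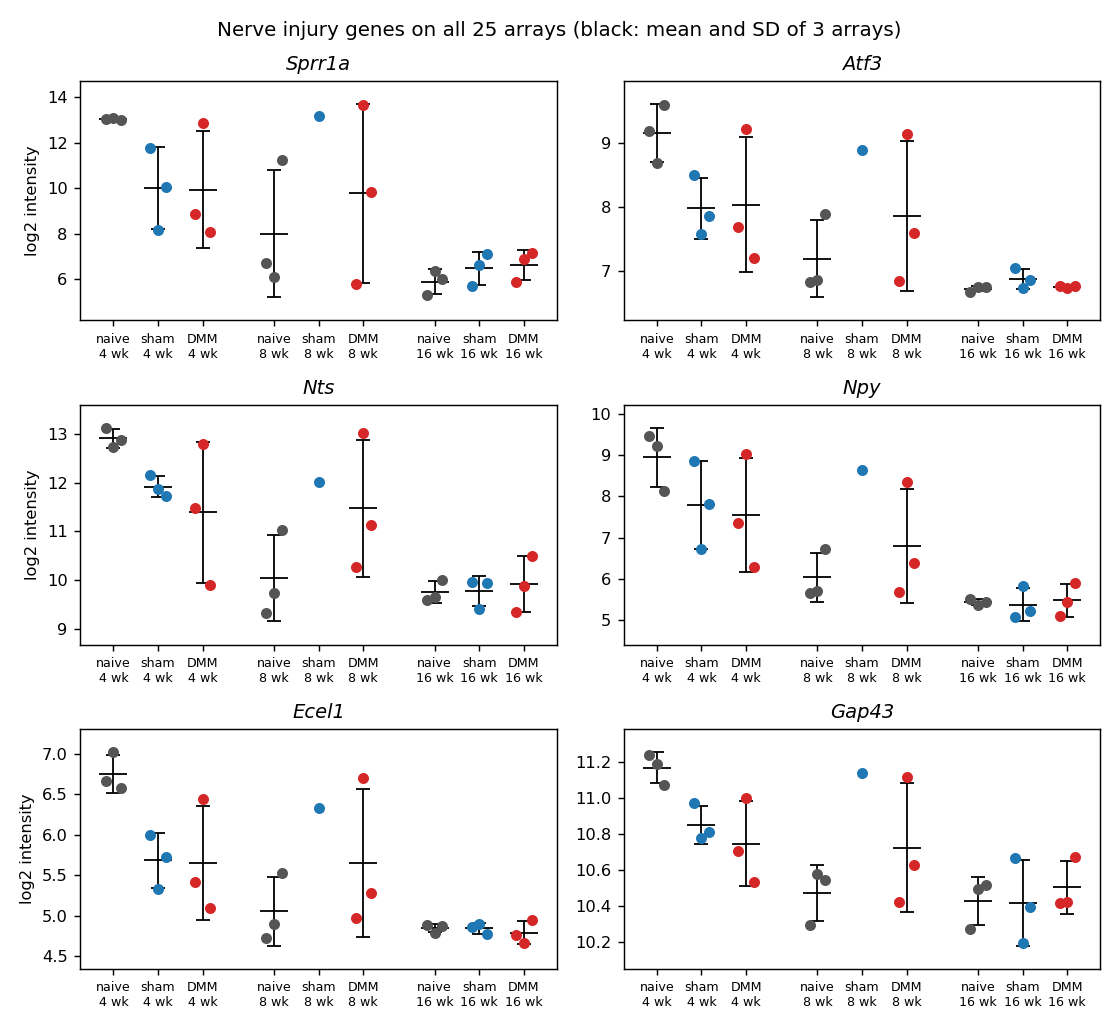
Log2 intensity of 6 nerve injury genes on all 25 arrays, by group and time; points are arrays and black bars the mean and SD where a group holds 3 arrays. Naive arrays at 4 weeks are high and DMM replicate 2 at 4 weeks lies near them, while at 16 weeks all groups are low (Sprr1a 5.32 to 7.15).

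Of 25 cell cycle genes 22 stood lower, with a median of -0.15, and in 15 of the 25 all DMM arrays lay below all naive arrays (60%, beside 11.3% of all genes). After centring 9 did so (36%, beside 7.28%). None passed the adjusted threshold. Top2a, a DNA topoisomerase of dividing cells, read 5.22, 4.80 and 4.84 in naive and 4.66, 4.54 and 4.61 in DMM arrays (-0.35 ± 0.11). Prc1, a spindle midzone protein, read 6.56, 6.20 and 6.36 in naive and 6.04, 6.15 and 6.01 in DMM arrays (-0.31 ± 0.12), and the kinesin Kif20a differed by -0.25 ± 0.08. Naive replicate 1 was the highest of the 9 arrays for all 3 genes, and without it the median of the list was -0.09. Of the 25 genes 10 had a mean under the highest negative control median, so their levels are faint. Sham arrays were lower than naive as well, with a median of -0.17.

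Of 29 macrophage markers 25 stood lower (median -0.15), and the list mean read 6.95, 7.18 and 6.94 in naive, 6.73, 6.46 and 6.51 in sham and 6.89, 6.83 and 6.90 in DMM arrays. In bulk tissue, fewer cells of a type and less RNA per cell cannot be told apart. Cx3cr1, the fractalkine receptor, read 6.81, 6.84 and 6.64 in naive and 6.42, 6.28 and 6.12 in DMM arrays (-0.49 ± 0.15, limma adjusted p = 0.383). Cd68, a lysosomal protein, read 7.41, 7.73 and 7.54 in naive and 7.18, 7.12 and 7.33 in DMM arrays (-0.36 ± 0.14). Csf1r, the receptor for the macrophage growth factor, overlapped (-0.15 ± 0.11). Without naive replicate 2, the highest array of the list, 18 of 29 stood lower and the median was -0.03. Sham arrays were the lowest of the time, with a median of -0.45 against naive.

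Complement genes, which share C1qa, C1qb and C1qc with the macrophage list, stood lower in 12 of 17 cases (median -0.07, and -0.02 without naive replicate 2), with the C3a receptor C3ar1 at 7.09, 7.26 and 6.82 in naive and 6.64, 6.40 and 6.41 in DMM arrays. Interferon-stimulated genes stood lower in 27 of 36 cases (median -0.13, and -0.05 without DMM replicate 3), and Ifi27l2a read 7.56, 6.78 and 7.11 in naive and 6.65, 6.21 and 6.03 in DMM arrays. The chemokine Ccl12 read 6.03, 6.31 and 6.57 in naive and 5.63, 5.72 and 5.29 in DMM arrays (-0.76 ± 0.19, limma adjusted p = 0.318). Ccl2, a monocyte attractant, differed by -0.43 ± 0.20 with overlap. Its receptor Ccr2 (-0.06 ± 0.16), Tlr2 (-0.04 ± 0.13) and Tlr4 (0.16 ± 0.13) overlapped too. Il13ra1, a chain of the interleukin 13 receptor, differed by -0.55 ± 0.17 without overlap.

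Of 21 genes of the glucocorticoid response 17 stood lower (median -0.13, and -0.08 without DMM replicate 1), and 7 of them had all DMM arrays below all naive arrays (33.3%, beside 11.3% of all genes), or 5 after centring. Klf9, a target of both glucocorticoids and the clock, read 11.44, 11.46 and 11.27 in naive and 10.92, 11.13 and 10.81 in DMM arrays (-0.44 ± 0.09, limma adjusted p = 0.179). Mt2, a metallothionein, read 15.54, 15.33 and 15.11 in naive and 14.61, 14.66 and 14.80 in DMM arrays (-0.64 ± 0.18, limma adjusted p = 0.358). Fam107a differed by -0.35 ± 0.12. Fkbp5, a widely used glucocorticoid target, overlapped (-0.05 ± 0.08). This list shares Per1, Sgk1, Tsc22d3, Pdk4 and Fkbp5 with the clock lists. Oxidative stress genes stood lower in 17 of 23 cases (median -0.09), with catalase (Cat) at 15.79 to 15.80 in naive and 15.61 to 15.69 in DMM arrays.

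Lists of voltage-gated channels had medians above 0, and that of 26 TRP and sensory transduction channels was near 0 (13 higher, 13 lower, median -0.005, and 0.02 after centring). Of 31 potassium and HCN channel genes 27 stood higher and 4 lower, with a median of 0.09, and in 7 (22.6%, beside 4.65% of all genes and 10.5% of the longest protein-coding genes) all DMM arrays lay above all naive arrays. None passed the adjusted threshold. Kcnb2, a delayed rectifier subunit, read 12.21, 12.22 and 12.37 in naive and 12.83, 12.58 and 12.77 in DMM arrays (0.46 ± 0.17, limma adjusted p = 0.460). Kcna2, a subunit of the channels beside the nodes of Ranvier, read 12.84, 13.004 and 12.96 in naive and 13.30, 13.16 and 13.30 in DMM arrays (0.32 ± 0.11). Sodium channel genes stood higher in 11 of 13 cases (median 0.07) and calcium channel genes in 12 of 17 (median 0.08), with 0 and 1 without overlap. Without DMM replicate 3 the potassium, sodium and calcium medians were 0.17, 0.12 and 0.16. The pain-related channels Scn9a (0.14 ± 0.09) and Scn10a (0.07 ± 0.12) overlapped. For sham minus naive the medians of the 3 lists were 0.21, 0.19 and 0.19.

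Of 18 markers of touch and position neurons 14 stood higher (median 0.12). Ntrk3, the neurotrophin 3 receptor of proprioceptors, read 12.78, 12.91 and 12.98 in naive and 13.53, 13.26 and 13.56 in DMM arrays (0.56 ± 0.19, limma adjusted p = 0.402). Piezo2, the touch channel, read 14.18, 13.99 and 13.92 in naive and 14.36, 14.35 and 14.20 in DMM arrays (0.27 ± 0.11). The acid-sensing channel Asic3 read 11.53, 11.66 and 11.59 in naive and 12.02, 12.15 and 11.72 in DMM arrays (0.38 ± 0.11). In all 3 genes sham differed from naive by at least as much (0.66, 0.35 and 0.52). Peptidergic nociceptor markers stood lower in 16 of 19 cases (median -0.14, and -0.065 without DMM replicate 3), a list that holds Gal and Adcyap1 of the injury program. Tac1, the substance P precursor (-0.16 ± 0.15), Trpv1, the capsaicin receptor (-0.18 ± 0.26), and P2rx3, an ATP receptor of nociceptors (-0.23 ± 0.14), overlapped.

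Schwann cell genes of myelin stood lower in 15 of 15 cases (median -0.17, and -0.07 without DMM replicate 2). In 2 of them (13.3%, beside 11.3% of all genes) all DMM arrays lay below naive, and in 0 after centring. Pmp2, a myelin lipid carrier, read 10.26, 11.18 and 10.58 in naive and 10.15, 9.10 and 10.36 in DMM arrays, and DMM replicate 2 was the lowest. Satellite glia markers stood higher in 6 and lower in 10 of 16 cases. Pericyte and smooth muscle genes stood higher in 11 of 17 cases (median 0.08), with Acta2, smooth muscle actin, at 8.49, 8.46 and 8.43 in naive and 8.87, 9.89 and 8.94 in DMM arrays. Fibroblast and meningeal markers had a median of 0.05 (-0.02 without DMM replicate 3) with 0 of 27 without overlap, while sham minus naive was -0.44.

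**Figure D4:**
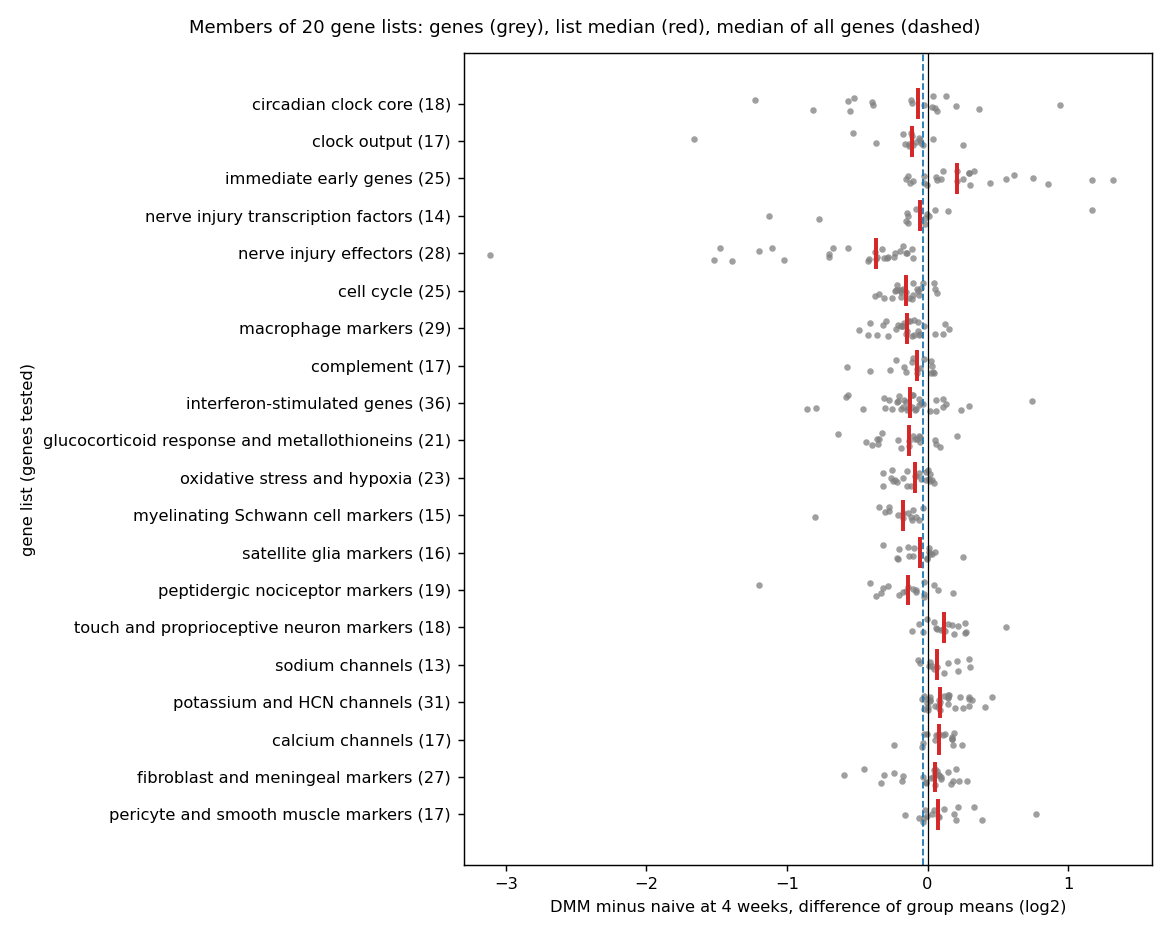
Differences of group means, DMM minus naive at 4 weeks (log2), for the members of 20 gene lists; grey points are genes, red bars list medians and the dashed line the median of all genes (-0.03). Nerve injury effectors have the lowest median (-0.37) and immediate early genes the highest (0.21) of the lists drawn.

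Among the other genes of smallest p without overlap were several in which sham and DMM lay together. Vps13c, a lipid transfer protein, read 10.01, 9.98 and 10.04 in naive, 10.32, 10.39 and 10.28 in sham and 10.30, 10.27 and 10.27 in DMM arrays (DMM minus naive 0.27 ± 0.06, limma adjusted p = 0.231). Mycbp2, a ubiquitin ligase of axons, read 12.33, 12.25 and 12.33 in naive, 12.67, 12.80 and 12.65 in sham and 12.65, 12.61 and 12.57 in DMM arrays. Capza2, an actin capping protein, read 12.48, 12.48 and 12.48 in naive, 12.18, 12.02 and 12.13 in sham and 12.19, 12.17 and 12.10 in DMM arrays (-0.32 ± 0.06, limma adjusted p = 0.133). For these genes the naive arrays stood apart from all 6 operated arrays of the same time. The same arrangement among the arrays at 4 weeks was seen in Foxi1, a forkhead factor (-0.43 ± 0.08, limma adjusted p = 0.133), and Gpihbp1, a capillary lipase anchor (-0.36 ± 0.08). Phc3 of the Polycomb group (0.32 ± 0.08) and Gnrh1 (0.44 ± 0.11) shared it. For Foxi1 the later naive arrays (5.333 to 5.715) overlapped those at 4 weeks. Gnrh1 read 4.49 to 4.73 in naive and 5.04 to 5.12 in DMM arrays, within or under the medians of the negative control probes (5.06 to 5.35). Htr1d, a serotonin receptor, read 10.19, 10.47 and 10.39 in naive and 10.69, 10.76 and 10.66 in DMM arrays (0.35 ± 0.09). Sham arrays read 10.57 to 10.76. The naive arrays of the later times read 10.855 to 11.094, above all DMM arrays at 4 weeks. The 12 genes of smallest p without overlap in each direction also held DQ267102, Ier2, Abcc5 and Eml6 among the higher, and Gimap6, Tifab, Rgcc and Sctr among the lower.

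The direction of the differences went with the length of the gene, mainly among the longer genes. Protein-coding genes were split in 5 groups of equal size by their genomic span in RefSeq. The share with all DMM arrays above all naive arrays was 3.14% in the group of shortest genes (median span 4152 bases) and 10.5% in the longest (134494 bases). From the shortest to the longest group, the share with all DMM arrays below was 12%, 12.1%, 13.6%, 9.59% and 6.02%. It was thus highest in the middle group. With centred arrays the shares above were 5.12% and 16.7% in the shortest and longest group, and those below 7.43% and 3.21%. The median of sham minus naive went the same way, from -0.07 in the shortest to 0.04 in the longest group, while that of DMM minus naive was -0.01 and 0.02 at 8 weeks and -0.01 and 0.01 at 16 weeks. The channel lists hold long genes, with a median span of 40227 bases for potassium and HCN channels and 111485 for sodium channels, and the part of span in their differences was not tested. The touch neuron list (71613 bases) had a median difference of 0.12, and that of GABA and glutamate receptors (232180 bases) was 0.004. Cytosolic ribosomal protein genes stood lower in 36 of 41 cases (median -0.09), with 14 below all naive arrays (34.1%), or 7 after centring. The 3012 pseudogenes had a median of -0.11, with 18.7% below all naive arrays. The share of all genes was 11.3%. With centred arrays 13.8% of pseudogenes and 7.28% of all genes lay below. The ribosomal and pseudogene groups were picked after their values were seen. Many pseudogenes are near copies of other genes, so their signals may not be separable.

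**Figure D5:**
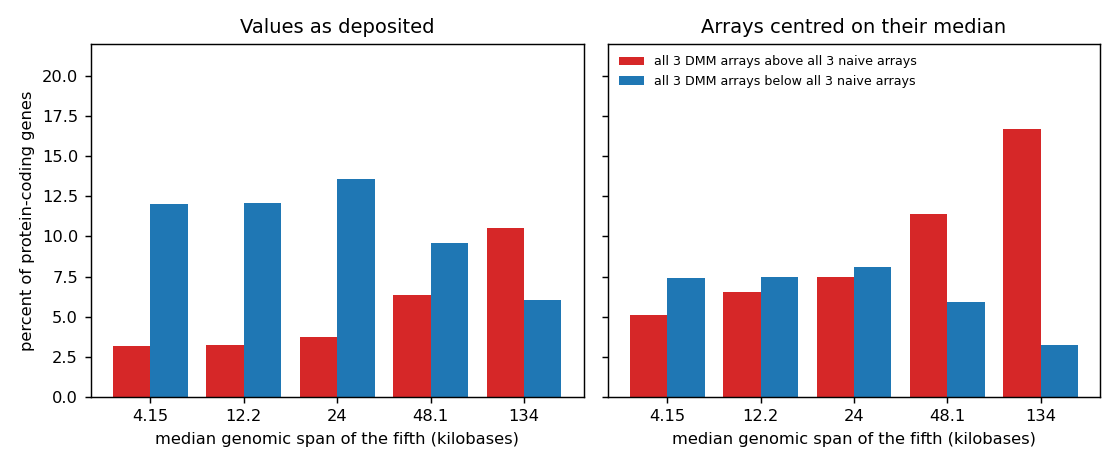
Percent of protein-coding genes whose 3 DMM arrays at 4 weeks lie all above (red) or all below (blue) the 3 naive arrays, by 5 groups of genomic span (labels give the median span in kilobases), for deposited values and for arrays centred on their median. The share above is largest in the longest group (10.5% and 16.7%).

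With the called pair included, 1783 genes had an unadjusted p below 0.05 in limma, where chance gives 1013. Of these 74.1% stood lower, and the share was 46.8% after quantile normalization, 43.8% after cyclic loess and 50.1% after centring, so the excess of lower genes depends on scaling. The change of the difference from 4 to 8 weeks had 0 calls (0%) in limma, with 1779 genes at an unadjusted p below 0.05. The change from 4 to 16 weeks had 1 call (0.00494%), the predicted gene Gm12599. DMM against sham at 4 weeks had 0 calls (0%) with 949 at an unadjusted p below 0.05, and sham against naive had 67 (0.331%) and 0 to 11 with any 1 of its arrays left out. These comparisons share arrays with DMM against naive. Without DMM replicate 3 the DMM against naive count was 4, Egr1 and Nr4a1 being added. For a gene with the median spread, the 95% interval of a difference reached 0.203 to each side.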

How the data were processed

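The deposited values are log2 intensities, 1 per probe set, for 72685 probe sets on 25 arrays. The log2 scale was read from the values. How the authors normalized them is not stated in the labels used here. Probe sets with exactly 1 symbol were named from the platform annotation, the brightest probe set stood for a gene, and genes with a mean above the 40th percentile of all probe sets (4.52) were kept, 20260 of 30142. limma 3.58.1 in R 4.3.3 was fitted with 1 mean per group over all 25 arrays (16 residual degrees of freedom), two-sided, with Benjamini-Hochberg adjustment and a threshold of 0.05. On simulated data for this comparison with 20260 genes, it recovered 67 of 100 genes shifted by 0.5 and 95 of 100 shifted by 1, with 3 unshifted genes called. The simulated noise was normal and independent between genes and arrays, with 1 SD per gene for all groups. It held no shared array effects and no unequal spread between groups, so these counts need not hold for the real arrays. Gene lists (45) were described by counts and medians with no test. The comparison and the lists were chosen with earlier results of these data known. Genes were named if they passed, belonged to the clock, immediate early or nerve injury lists, were among 12 of smallest p without overlap in each direction (predicted and similar symbols left out), up to 6 of smallest p in another list, a short list of pain genes, or called in a change between times. Alternatives were the arrays fitted, the filter, scaling, prior, replicate block, probe set rule and leaving out each array. Arrays have no read depth, and their number limits the precision. Figures were drawn with matplotlib in Python.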

Additional observations from a re-analysis of the deposited data

Results flagged for a closer look

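Some differences at 4 weeks stood opposite to those at a later time. Gm12599, a predicted gene, was the single one whose change passed: its DMM minus naive difference was -0.25 at 4 weeks and 0.41 at 16 weeks, a change of 0.66 (limma adjusted p = 0.0401). It did not pass when the arrays of the contrast were fitted alone, with no filter, with centred arrays or with the replicate block. It also lost its call in 8 of the 12 fits that left out 1 array. The other changes were seen because no DMM array overlapped the naive arrays at either time and the sides were opposite. The difference of the macrophage list mean was -0.152 at 4 weeks, 0.183 at 8 weeks and 0.411 at 16 weeks, and that of the complement list was -0.122 at 4 and 0.163 at 16 weeks. That of the oxidative stress list was -0.113 at 4 and 0.062 at 8 weeks. The differences of these lists between times were not tested. The DMM means of the macrophage list were 6.87, 6.79 and 6.87 at 4, 8 and 16 weeks, while the naive means were 7.03, 6.60 and 6.46. For complement the DMM means were 8.33, 8.32 and 8.37 and the naive means 8.45, 8.21 and 8.21. For oxidative stress they were 9.70 in DMM at both 4 and 8 weeks, and 9.81 and 9.64 in naive arrays, so the naive values moved more than the DMM values in these 3 lists between the times named. Gimap6, a GTPase of lymphocytes and vessels, differed by -0.374 at 4 weeks and 0.173 at 16 weeks (change 0.55, limma adjusted p = 0.204), and Sctr, the secretin receptor, by -0.268 at 4 weeks and 0.164 at 8 weeks (change 0.43, limma adjusted p = 0.435).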

How the results depend on the processing

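Arntl and Dbp were the 2 genes called in DMM against naive under each filter, scaling, prior and probe set alternative and with the replicate block, and the count was 0 when the 6 arrays were fitted alone. Leaving out 1 array gave 2 to 4, the highest without DMM replicate 3. The change from 4 to 16 weeks had 0 calls with its arrays fitted alone, with no filter, with centred arrays and with the replicate block, and 0 to 16 with 1 array left out (16 without DMM replicate 3 of 16 weeks). The change from 4 to 8 weeks had 0 to 1 and DMM against sham 0 to 2, the highest without DMM replicate 3 of 4 weeks in both. Sham against naive, with 67 calls, had 0 with its arrays fitted alone, 3 with no filter, 163 with the stricter filter, 12 with centred arrays, 9 with the replicate block and 0 to 11 with 1 array left out. The replicate block was checked because the groups share replicate numbers. Arrays of DMM and naive with the same number did not deviate together (correlations across genes -0.106, -0.164 and -0.0377). The values were -0.0745, 0.197 and 0.0658 for DMM and sham, and -0.0455, -0.0913 and 0.0855 for naive and sham. With 3 arrays in a group this cannot exclude a pairing, and the labels do not state one. The genes called or ranked by p kept their direction in each setting. Small differences of overlapping genes, those of Cry1, Cry2, Nfil3, Pdk4, Jun, Stat3, Smad1, Atf2, C1qc, Ccr2, Tlr2 and Scn10a, changed sign in at least 1 setting, and the cause was not tested. Of the tested genes 20.7% had a mean below the highest negative control median (5.35), and small differences there are limited by dim signal.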

Other observations

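Some gene groups not described above had small shifts. Of 23 cytokine and receptor genes 19 stood lower (median -0.10, and -0.07 without DMM replicate 3), and of 18 genes of cholesterol synthesis and uptake 14 did (median -0.06, and near 0 without naive replicate 1). Of 21 endothelial markers 15 stood lower, with 4 all below naive (19%, beside 11.3% of all genes; 4 after centring, beside 7.28%). Subunits of the respiratory chain and ATP synthase stood lower in 72 of 93 cases (median -0.04, and -0.01 with centred arrays), and genes of lysine methyltransferases, demethylases and chromatin remodellers stood higher in 43 of 61. These last 2 groups were formed by symbol after values were seen, and no test was made of any of them.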
